A study of Danio rerio with 8 samples.

Results

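The loci described here are those of a zebrafish long non-coding RNA (lncRNA) catalogue with 1 transcript model of 3 or more exons, and therefore at least 2 introns. They were chosen from the deposited zebrafish catalogue after RefSeq models (NR_ and NM_ identifiers) had been set aside, and numbered 315 of 1014 loci, or 31.1%. Of the other loci, 366 had 1 transcript of 2 exons, 95 had 1 transcript of a single exon, 237 had 2 or more transcripts and 1 had RefSeq models alone. The 315 loci held 1432 exons and 1117 introns, among them 802 internal exons. An internal intron, one with an intron on either side, needs 4 exons, so the 487 internal introns came from 168 loci.

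The study sequenced ribosome-protected RNA of whole TL/AB zebrafish embryos at 8 stages, which were the 2-4 cell, 256 cell and 1K cell stages, Dome, Shield, Bud, 28 hours and 5 days after fertilization. Each stage had 1 library of pooled embryos and no replicate. The transcript models come from earlier annotations and carry no expression value, so no stage, level or depth enters the results. The values are exon coordinates on the Zv9 (danRer7) build, and lengths are given in nucleotides (nt) in the order of transcription.

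An lncRNA gene is transcribed and spliced much as a coding gene is: introns are removed from the primary transcript and the exons joined, without a long conserved reading frame to constrain exon lengths. In coding genes of vertebrates the first intron is often the longest and the last exon, which carries most of the untranslated tail, is often the longest exon. The models come from 2 sources, seen in how their names begin. Models named linc- (179 loci) were named after a nearby coding gene, and models named Zv9_ (136 loci) carry a number only. The catalogue combines lncRNA models with other transcripts of development, and the Zv9_ names do not show which a locus is, so Zv9_ loci may include some that were not annotated as lncRNAs.

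Known lncRNAs among these loci showed 2 different layouts. The megamind RNA, which was found to affect brain development in zebrafish, was the linc-birc6(megamind)_1 model at XLOC_005409, on the minus strand of chromosome 17 from 22517187 to 22519802. Its exons measured 375, 65 and 962 nt, and its introns of 614 and 600 nt were almost equal. The cyrano RNA, known for a conserved site that pairs with a microRNA, was the linc-tmem39b(cyrano)_1 model at XLOC_003108, on the minus strand of chromosome 13 from 33484735 to 33491201. Its exons measured 198, 61 and 4360 nt, so 94.4% of the spliced RNA lay in the last exon, the largest such share of the 315 loci. Its introns measured 274 and 1574 nt. In both, a short middle exon stood between a longer first exon and a much longer last exon. RefSeq models set aside at 5 of the 315 loci included oip5-as1, the RefSeq name of cyrano, and the microRNA precursors dre-mir-9-1 and mir133a-2, at XLOC_004522 and XLOC_009451.

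**Figure D1:**
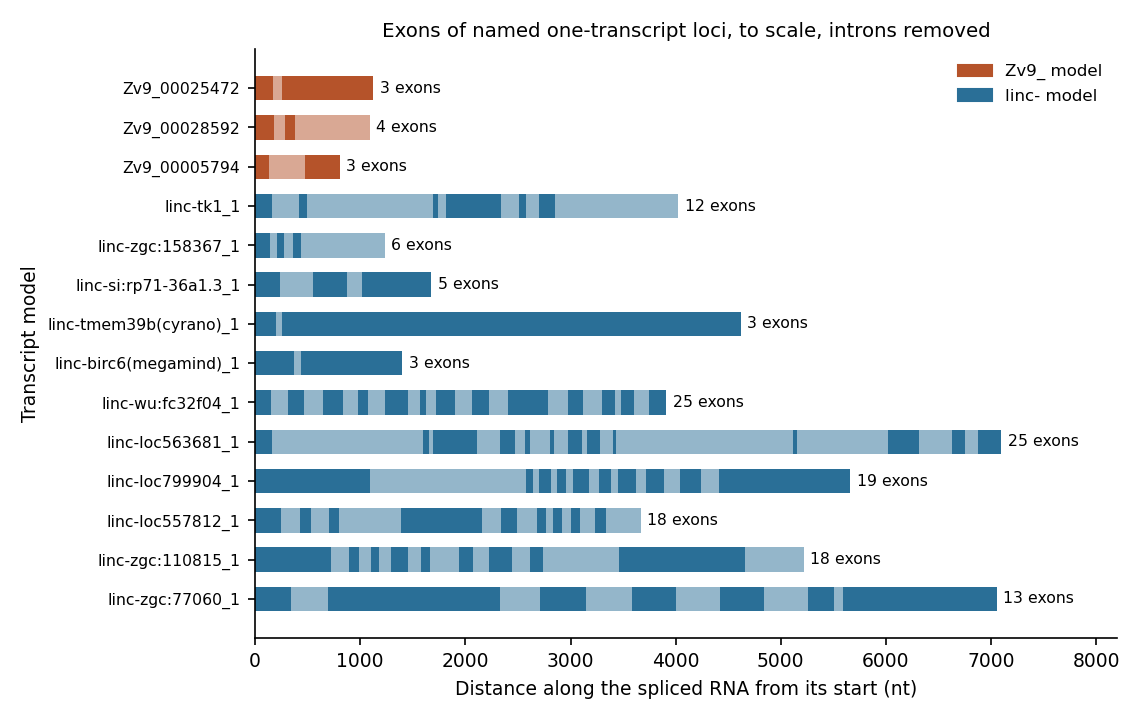
Exons of 14 loci drawn to scale along the spliced RNA (nt from its start), introns removed, neighbouring exons in dark and pale shades, Zv9_ models in orange and linc- models in blue. The last exon of cyrano fills 94.4% of its model, while the models of 18 to 25 exons are divided into many short blocks.

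The first intron was not systematically the longest. The median first intron was 2229 nt (exact 95% interval of the median 1644 to 2638, n = 315 loci), and the median last intron was 2356 nt (1860 to 2756). The median internal intron, taken as the median of each locus, was 1664 nt (1305 to 2003, n = 168). Within a locus the first intron was longer than the median internal intron in 89 of 168 loci, or 53.0% (exact binomial interval 45.1 to 60.7), and shorter in 79. The last intron was longer than the median internal intron in 85 loci and shorter in 83. The first intron was longer than the last in 148 of 315 loci, or 47.0% (41.4 to 52.7). None of these 3 contrasts passed a two-sided exact sign test across loci (p = 0.49, 0.94 and 0.31, Benjamini-Hochberg adjusted p = 0.65, 1 and 0.47 over 32 tests). Among Zv9_ loci alone the first intron was longer than the last in 54 of 136, or 39.7%, which passed (exact sign test, adjusted p = 0.038). Among linc- loci it was longer in 94 of 179, or 52.5%, which did not (exact sign test, adjusted p = 0.68). These 2 splits are alternative settings outside the 32 tests, and their adjustment does not cover the number of alternatives tried. The intervals of the first 2 contrasts reach up to 60.7% and 58.4% of loci. Setting the single intron at an end against the longest of the internal introns gave 38.7% of loci for the first and 35.3% for the last, a choice that favours the internal side because it takes the longest of several.

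The place of the longest intron gave the same picture. It was the first intron in 107 loci, or 34.0%, an internal intron in 78 and the last in 130, or 41.3%. If each intron of a locus had the same share, 115.6 first, 83.8 internal and 115.6 last introns would be the longest. Among the 168 loci with 4 or more exons the longest intron was the first in 45, the last in 45 and internal in 78, against 42.1, 42.1 and 83.8 at equal shares. In loci of exactly 3 exons it was the second intron in 85 of 147, with 59 of 93 in Zv9_ and 26 of 54 in linc- models. At 4 exons the 3 introns had medians of 2638, 2809 and 2686 nt (n = 71 loci), and at 5 exons the 4 introns had 2023, 1625.5, 1822 and 2137.5 nt (n = 38). The quartiles at each of these positions spanned severalfold, as with 555.5 to 5646.5 nt for the first intron of 4-exon loci, and overlapped from one position to the next. By source the 4-exon medians were 3509, 8093 and 3754 nt in Zv9_ loci (n = 31) and 2505.5, 2063.5 and 1769 nt in linc- loci (n = 40). The middle intron was the longest in 16 of the 31 Zv9_ and 10 of the 40 linc- loci. This 4-exon split by source was not tested.

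**Figure D2:**
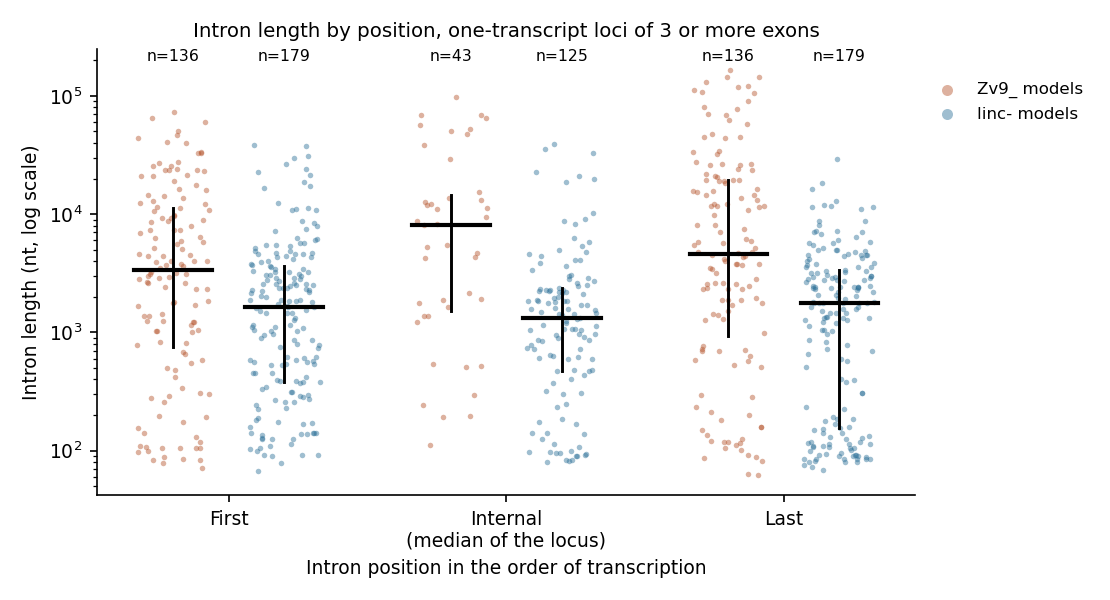
Intron length (nt, log scale) of each locus at the first, internal (median of the locus) and last position, Zv9_ models in orange and linc- models in blue, with medians (horizontal bars) and quartiles (vertical bars). Introns run from 62 to 167189 nt, and the Zv9_ medians of 3388, 8093 and 4615.5 nt lie above the linc- medians of 1637, 1331 and 1763 nt.

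Counted by intron instead of by locus, internal introns had a lower median over all loci, but not among Zv9_ models. With all internal introns pooled their median was 998 nt (n = 487), below the first introns at 2229 nt and the last at 2356 nt. In the 168 loci that have internal introns, first and last introns had medians of 1863.5 and 1786 nt. Among the 43 Zv9_ loci of these, pooled internal introns had a median of 5278 nt, above 3634 nt for first and 4001 nt for last introns. Among the 125 linc- loci it was 831.5 nt, below 1530 and 1560 nt. The 41 loci of 7 or more exons, 24.4% of the 168 loci with an internal intron, supplied 286 of the 487 internal introns, or 58.7%. Their internal introns had a pooled median of 578 nt. The 4-exon loci supplied 71, with a median of 2809 nt. The gap to first introns was also present inside exon-rich loci. At 5 or more exons (n = 97 loci) the median first intron was 1506 nt against 831.5 nt for pooled internal introns. At 7 or more exons it was 1464 against 578 nt. Last introns had a median of 1763 nt at 5 or more exons, but 652 nt at 7 or more. In the 40 linc- loci of 7 or more exons the last introns, at 525.5 nt, lay below the pooled internal introns, at 567 nt. Compared locus by locus with the median internal intron, the first intron was longer in 47.9% of 4-exon loci and in 56.7% of loci with 5 or more exons, neither past the threshold (exact sign test, adjusted p = 0.90 and 0.34). What sets the pooled gap was not tested.

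Introns of the same locus were unlike each other. The longest intron was a median of 13.4 times as long as the shortest (quartiles 3.07 and 37.8, n = 315), and more than 10 times as long in 169 loci, or 53.7%. It held a median of 65.2% of the intron length of its locus. Both measures depend on the number of introns by construction, and 147 of the 315 loci had only 3 exons. By source the median ratio was 5.43 in Zv9_ and 20.2 in linc- loci, and the median share 71.3% and 59.9%. The most uneven of the loci named here was XLOC_002565, where the last intron, of 121309 nt, stood beside one of 297 nt, a ratio of 408. The most even were megamind and XLOC_010022 on chromosome 24, a Zv9_ model whose introns measured 46735 and 44732 nt. Across loci the first and last introns were weakly related (Spearman's rho 0.23, n = 315), and rho was 0.22 within Zv9_ and 0.12 within linc- models.

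Introns of under 200 nt were found at every position. They made up 49 of 315 first introns (15.6%), 140 of 487 internal introns (28.7%) and 70 of 315 last introns (22.2%). Among internal introns they were 4 of 61 in Zv9_ models (6.56%) and 136 of 426 in linc- models (31.9%). Introns of over 10000 nt made up 16.8% of first, 8.21% of internal and 20.0% of last introns. By source these shares were 27.2%, 37.7% and 39.7% in Zv9_ models and 8.94%, 3.99% and 5.03% in linc- models. Only 5 of the 1117 introns were under 70 nt, the shortest being the last intron of XLOC_011957, at 62 nt. That locus on chromosome 4 had 221 nt of exon in 705 bp and was among the 3 narrowest. The narrowest, XLOC_010625 on chromosome 25, had exons of 206 nt in all within 609 bp, and XLOC_000977 on chromosome 1 had 518 nt within 760 bp.

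The last exon was the longest exon in 227 of 315 loci, or 72.1% (exact interval 66.8 to 76.9), the first in 56 and an internal exon in 32. The median last exon measured 587 nt (518 to 660), the first 193 nt (171 to 230) and the internal exon, as the median of a locus, 112 nt (106 to 120). Last exons exceeded internal exons in 286 loci and first exons in 243, and first exons exceeded internal exons in 220. Over all loci, those with the opposite order included, the median ratio was 4.56 for last over internal exon (quartiles 2.20 and 10.4), 3.16 for last over first and 1.70 for first over internal (quartiles 0.834 and 3.16). Last exons held a median of 55.7% of the spliced RNA and first exons 16.8%. Exon order over all loci was not tested, because its pattern in a larger set that includes these loci was known beforehand. Only its differences between the sources were tested. The share of loci with the last exon longest was 71.7% on the plus strand (n = 159) and 72.4% on the minus strand (n = 156).

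**Figure D3:**
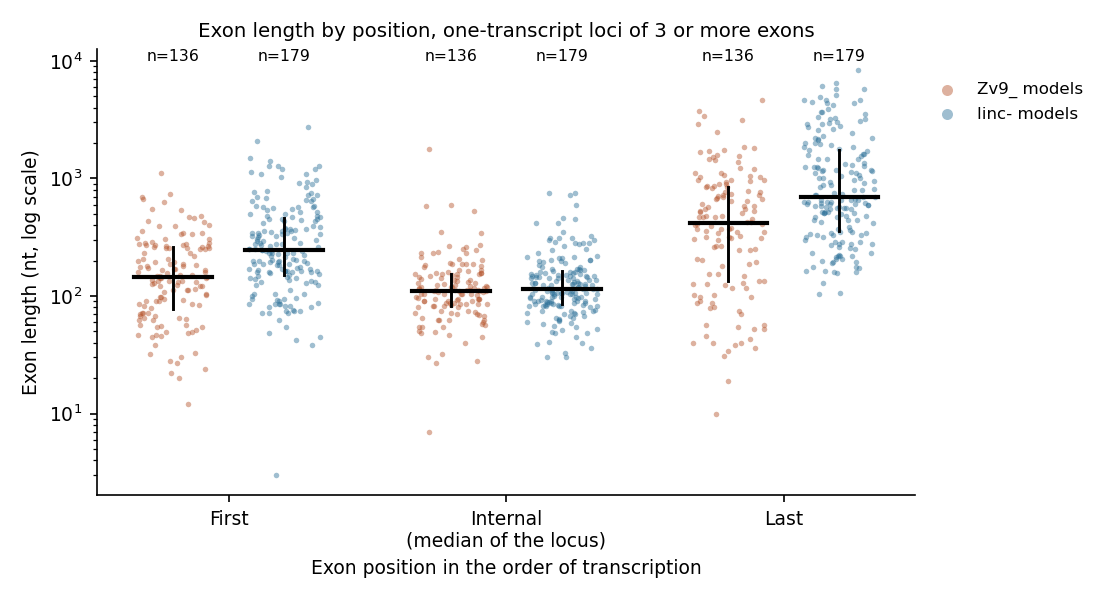
Exon length (nt, log scale) of each locus at the first, internal (median of the locus) and last position, coloured by source as in the plot of introns, with medians and quartiles. Internal exons of both sources lie close together, with medians of 110.5 and 114 nt, and last exons are the longest, at 417.5 and 691 nt.

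Internal exons had similar medians at each number of exons. The median was 116 nt in 3-exon loci, 104.5 nt in 4-exon loci, 113.5 nt in 5-exon loci, 124.5 nt in 6-exon loci and 101 nt in 7-exon loci. Loci of 3 or 4 exons and loci of 5 or more had medians of 112.5 and 110 nt, a difference that did not pass Fisher's exact test on the loci above the pooled median (exact test, adjusted p = 1; 109 of 218 against 48 of 97). The end exons were longer in loci with more exons. The median last exon was 520 nt in loci of 3 or 4 exons and 796 nt in loci of 5 or more (exact test, adjusted p = 0.0056), and the median first exon was 173 against 240 nt (exact test, adjusted p = 0.024). The internal intron was shorter in the exon-rich loci, at 1331 against 2809 nt (exact test, adjusted p = 0.024), and the first intron, at 1506 against 2592.5 nt, missed the threshold (exact test, adjusted p = 0.052). Exon-rich loci were mostly linc- models, and within either source none of these differences passed. Among linc- models alone the last exon differed by -177 nt (exact test, adjusted p = 0.29), the first exon by 5.5 nt in the opposite direction (exact test, adjusted p = 0.90) and the internal intron by 908.5 nt (exact test, adjusted p = 0.41).

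Exceptions to the short internal exon were few. Over 1000 nt long were 16 of 802 internal exons, or 2.00%, against 99 of 315 last exons, or 31.4%. The longest lay in linc-zgc:175096_1 at XLOC_004489 on chromosome 16, where exon 4 of 10 measured 3656 nt, in linc-zgc:152954_1 at XLOC_002429 on chromosome 12, with 2541 nt in exon 3 of 5, and in linc-acp6_1 at XLOC_016008 on chromosome 9, with 2192 nt in exon 4 of 7. At the other end, chosen after the values were seen, linc-loc798482_1 at XLOC_011332 had an internal exon of 3 nt, and Zv9_00028888 at XLOC_002290 had one of 7 nt between introns of 6890 and 19221 nt.

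The sources differed in exon number more than in any other share tested. Of the Zv9_ loci 93 of 136, or 68.4%, had exactly 3 exons, and 12, or 8.82%, had 5 or more. Of the linc- loci 54 of 179, or 30.2%, had exactly 3 and 85, or 47.5%, had 5 or more (exact test, adjusted p = 8.6e-13, Fisher's exact test). The mean was 3.45 ± 0.81 exons (SD, n = 136 loci) against 5.38 ± 3.43 (n = 179). The highest Zv9_ number was 8 exons, and all 13 loci of 10 or more exons were linc- models.

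**Figure D4:**
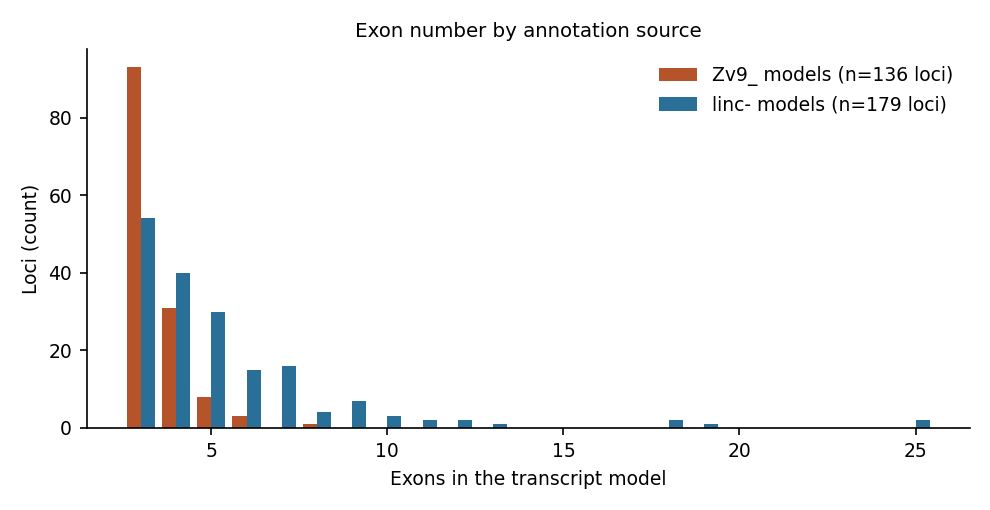
Number of loci (vertical axis) with each number of exons (horizontal axis), Zv9_ models in orange and linc- models in blue. Zv9_ loci fall from 93 at 3 exons to 1 at 8, while linc- loci reach 25.

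Zv9_ models had shorter exons at both ends, longer introns and a wider span than linc- models. Their median spliced length was 787.5 nt (698 to 937) against 1566 nt (1365 to 1952), with 38 of 136 against 119 of 179 loci above the pooled median (exact test, adjusted p = 1.8e-10, Fisher's exact test, as for the other values here). First exons measured 144 against 244 nt (exact test, adjusted p = 6.7e-05) and last exons 417.5 against 691 nt (exact test, adjusted p = 0.00067). First introns measured 3388 against 1637 nt (exact test, adjusted p = 0.0042), internal introns 8093 against 1331 nt (exact test, adjusted p = 0.0041) and last introns 4615.5 against 1763 nt (exact test, adjusted p = 9.3e-05). Internal exons, at 110.5 against 114 nt (intervals 102 to 120 and 106 to 129), did not pass (exact test, adjusted p = 0.59). Introns made up a median of 95.6% of a Zv9_ span of 18056.5 bp and 79.0% of a linc- span of 9700 bp. The span differed too (exact test, adjusted p = 0.00018).

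These differences had to be read beside exon number. In loci of exactly 3 exons the spliced length was 661 nt for Zv9_ (n = 93) against 1402 nt for linc- models (n = 54), the last exon 373 against 653.5 nt, and the last intron 4771 against 1934 nt, each still past the threshold. The first intron, at 3178 against 1859 nt, then missed it (exact test, adjusted p = 0.052). Internal introns need 4 exons. In loci of exactly 4 exons they measured 8093 nt in 31 Zv9_ and 2063.5 nt in 40 linc- loci, which was not tested. Only 12 Zv9_ loci had 5 or more exons, and there neither intron nor end exon differences passed. Spliced length, at 1330 against 2062 nt, and span, at 53854 against 12406 bp, did pass there (exact test, adjusted p = 0.0092 and 0.029). The opposite order of the source medians was not seen within a source, where longer RNAs tended to have wider loci. Spearman's rho of spliced length and span was 0.28 in 136 Zv9_ and 0.36 in 179 linc- loci. Span includes the exons, so part of this relation is built in. Both lengths also rose with exon number (rho 0.34 and 0.25 in Zv9_, 0.36 and 0.43 in linc- loci).

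The 3 loci nearest to the medians of each source varied among themselves. Nearness was judged on the first exon, last exon, first intron and last intron alone, so exon number and spliced length played no part. Zv9_00025472 at XLOC_001416 on chromosome 10 (29869133 to 29878935, minus strand) had exons of 168, 90 and 867 nt and introns of 3919 and 4759 nt. Zv9_00028592 at XLOC_002219 on chromosome 12 had exons of 180, 103, 94 and 718 nt and introns of 3810, 4279 and 4001 nt. Among linc- models, linc-zgc:158367_1 at XLOC_005086 on chromosome 17 (15919763 to 15925817, plus strand) had exons of 141, 70, 67, 87, 76 and 796 nt and introns of 1506, 1452, 108, 300 and 1452 nt. linc-si:rp71-36a1.3_1 at XLOC_009198 on chromosome 22 had exons of 240, 309, 324, 144 and 660 nt and introns of 2326, 2743, 869 and 1560 nt. In these 4 loci the last exon was the longest. In the remaining 2 an internal exon was. Zv9_00005794 at XLOC_011042 on chromosome 3 had exons of 134, 343 and 327 nt and introns of 3979 and 8042 nt. linc-tk1_1 at XLOC_002063 on chromosome 11 had 12 exons, of which exon 4 measured 1192 nt and the last 1173 nt, and its span of 15045 bp was wider than those of the 3 Zv9_ loci, at 9803, 13185 and 12825 bp.

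The extremes divided by source as well. The 5 widest loci, the 5 with the longest first intron and the 5 with the longest later intron were all Zv9_ models. So were the 3 narrowest loci. XLOC_003714 on chromosome 14, from 37152912 to 37493247, spanned 340336 bp for 1283 nt of exon, with introns of 33320, 116907, 21637 and 167189 nt. The longest first intron, 73428 nt, lay in XLOC_003744 on the same chromosome, ahead of an intron of 119804 nt, in a model whose exons measured 70, 126 and 126 nt. XLOC_003706 and XLOC_004742 held single introns of 145081 and 143578 nt. XLOC_007871 on chromosome 20 had introns of 60060 and 81084 nt in that order and a spliced length of 1823 nt.

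The 5 longest spliced models and the 5 with the most exons were all linc- models. linc-prpf4_1 at XLOC_013210 on chromosome 5 measured 9578 nt, of which 67.8% lay in the last of its 9 exons. linc-loc567610_1 at XLOC_004000 on chromosome 15 measured 9023 nt, 93.5% of it in the last of 8 exons. With 25 exons each, linc-wu:fc32f04_1 at XLOC_009694 on chromosome 23 and linc-loc563681_1 at XLOC_014507 on chromosome 7 departed from that layout: their last exons held 4.19% and 3.11% of the RNA, and their longest exons were exon 17, of 379 nt, and exon 18, of 1687 nt. The longest exon also came before the last in linc-loc799904_1 (exon 2 of 19), linc-loc557812_1 (exon 7 of 18) and linc-zgc:110815_1 (exon 17 of 18).

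linc-zgc:77060_1 at XLOC_010952, on the plus strand of chromosome 3 from 13949157 to 13981088, had a repeating structure. Its 13 exons measured 346, 352, 1636, 378, 435, 435, 420, 420, 417, 420, 249, 84 and 1464 nt. Its introns measured 1971, 77, 8825, 308, 308, 3760, 2193, 2192, 2193, 2574, 76 and 399 nt. Neighbouring exons of nearly the same length (within 1% and at least 200 nt) occurred 4 times in it and in no other member, and neighbouring introns of that kind occurred 3 times in it and once each in 3 other loci. This search was made after the values of XLOC_010952 had been seen. It covered direct neighbours of at least 200 nt only, so repeats of another kind were not counted. For example, the exons of linc-nt5c3_1 at XLOC_004721 measured 326, 169, 278, 169, 317, 169, 278, 169 and 1549 nt.

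Loci named after developmental transcription factors from a list numbered 3, all on the minus strand. All were linc- models by construction, since Zv9_ models carry no gene name. linc-six3a_1 at XLOC_002971, named after a factor of the forebrain and eye, lay on chromosome 13 and had introns of 141, 183 and 11787 nt. linc-pou3f1_1 at XLOC_004898 on chromosome 16, named after a POU-domain factor of the nervous system, had introns of 5517, 2809 and 16173 nt, and its first exon of 559 nt was its longest. linc-tcf7_1 at XLOC_008846 on chromosome 21, named after a factor that acts in Wnt signalling, had its longest intron first, at 11112 nt of 19503 nt in all. The longest intron was thus the last in 2 of the 3.

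Internal exon lengths were divisible by 3 more often in linc- than in Zv9_ models. An exon whose length is a multiple of 3 can be included or skipped without shifting a reading frame, and coding genes hold more of them than equal remainders would give. Of the linc- internal exons 287 of 605 were divisible, or 47.4% (exact interval 43.4 to 51.5), and of the Zv9_ internal exons 61 of 197, or 31.0% (24.6 to 37.9). Equal remainders would give 33.3%. In mouse loci chosen by the same rule (n = 78 loci) the share was 61 of 205, or 29.8% (23.6 to 36.5). In zebrafish loci with 2 or more transcripts it was 141 of 371, or 38.0% (33.0 to 43.2), between the Zv9_ and linc- shares. The intervals treat exons as independent, which exons of 1 locus are not. With each locus given the same weight the shares were 47.0% for linc- (n = 179) and 31.7% for Zv9_ loci (n = 136). The linc- share was 46.3% in 3-exon loci, 40.0% in 4-exon loci and 48.8% in loci of 5 or more, and the Zv9_ share 33.3%, 27.4% and 31.0%. First exons of linc- models were divisible in 38.0% and last exons in 33.0%. No test of these shares was run, since the split by source was chosen after the values were seen, and coding potential was not analysed here.

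**Figure D5:**
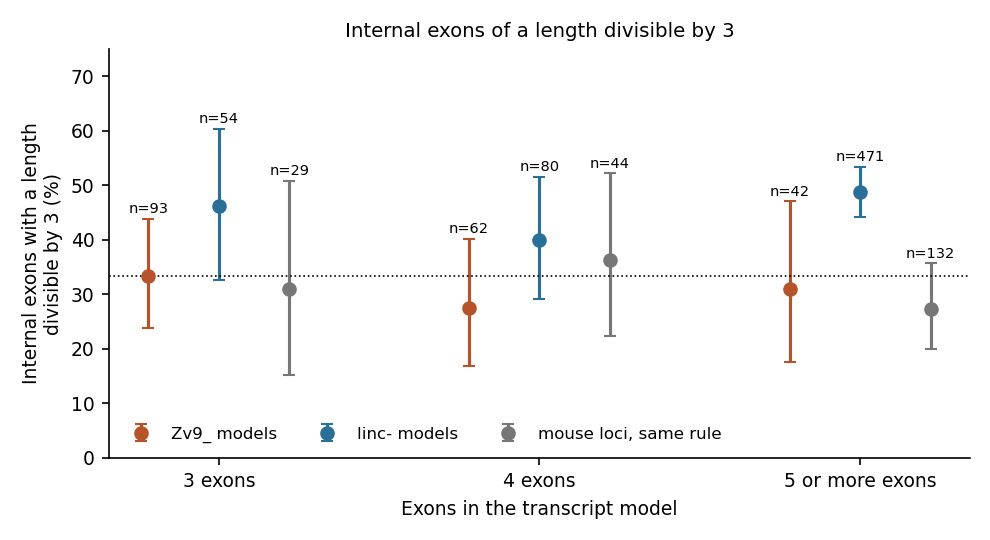
Percentage of internal exons with a length divisible by 3 (points, with exact 95% binomial intervals and the number of exons) in loci of 3, 4 and 5 or more exons, for Zv9_ models, linc- models and mouse loci chosen by the same rule. The dotted line marks 33.3%. The linc- points, at 46.3%, 40.0% and 48.8%, are the highest of each class.

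A few linc- loci carried very high shares. Among the 41 loci with at least 5 internal exons, 40 of them linc-, the share reached 75% in 10, all linc- models and chosen after their values were seen. All 7 internal exons of linc-zgc:172056_1 (XLOC_003569) were divisible, at 96, 54, 90, 54, 45, 138 and 219 nt, as were the 5 of linc-loc100334996_1 (XLOC_009213), at 30, 24, 30, 24 and 48 nt, and the 5 of linc-pex19_1 (XLOC_007380), at 189, 75, 99, 153 and 84 nt. In linc-zgc:100811_1 (XLOC_004974) 8 of 9 were, and in linc-zgc:77060_1 (XLOC_010952) 9 of 11. Without these 10 loci the linc- share was 42.8% (232 of 542). The exon-rich models varied: linc-ipo13_2_1 (XLOC_008217) had 1 of 10.

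The nearest set in the catalogue, 2-exon loci with 1 transcript, differed in total length but not detectably at the start. The median spliced length was 1201 nt here against 656.5 nt in 366 such loci (exact test, adjusted p = 1.6e-09, Fisher's exact test). The sets were chosen by exon number, and more exons favour a longer spliced length by construction. That difference was 203 nt within Zv9_ and 542 nt within linc- models. The last exon measured 587 against 397 nt (exact test, adjusted p = 0.0056). The first exon, at 193 against 187.5 nt, and the first intron, at 2229 nt against 2400 nt for the only intron of a 2-exon locus, did not pass (exact test, adjusted p = 0.90 and 0.66). Zv9_ models made up 306 of the 366, and the last-exon difference did not hold within a source: it was 75 nt in Zv9_ models (exact test, adjusted p = 0.41) and -110 nt in linc- models (exact test, adjusted p = 0.55).

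Loci with several transcripts, represented by their longest model where that had 3 or more exons (n = 152), had longer last exons, at 852 against 587 nt (exact test, adjusted p = 0.00017), and longer internal introns, at 2942 against 1664 nt (exact test, adjusted p = 0.0015). Taking the longest of several models favours length by construction. With the first-listed model in its place the last exon measured 697 against 587 nt, which did not pass (exact test, adjusted p = 0.19). Of the loci with an internal intron, Zv9_ models made up 62 of 92 with several transcripts but 43 of 168 with 1. The internal-intron difference did not pass within either source. Among Zv9_ models the order was reversed, at 3573.75 against 8093 nt (exact test, adjusted p = 0.27). Among linc- models it was 1949 against 1331 nt (exact test, adjusted p = 0.59). First introns, at 2359.5 against 2229 nt, did not pass (exact test, adjusted p = 0.82).

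Mouse loci chosen by the same rule on the mm9 catalogue (78 of 167) had a median last exon of 1067.5 nt against 587 nt (exact test, adjusted p = 0.024). Between mouse linc and zebrafish linc- models it was 1099 against 691 nt, which did not pass (exact test, adjusted p = 0.28). The longest intron was the first in 26 of 78 mouse loci, or 33.3%, the last in 26 and internal in 26, close to the zebrafish share of 34.0% (difference 0.63 percentage points, exact test, adjusted p = 1). Species and annotation method cannot be told apart in these values.

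The loci were spread over all 25 assembled chromosomes, with 4 on unplaced scaffolds. They made up between 17.5% of the catalogue's loci on chromosome 4 (11 of 63) and 42.2% on chromosome 15 (19 of 45). Chromosome 7 held the most, 22, of which 11 were of either source.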

How the data were processed

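Per the labels' protocols, footprints of 8 libraries were made from pooled frozen embryos, and Bowtie2, TopHat2 and bedtools are named in the submitters' processing notes. The annotation tables the authors deposited hold exon coordinates (first and last base, counted from 1), with no other values and 0 columns per library. Exon numbers ran in genomic order, so exons and introns were ordered by strand.

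Loci were compared with exact tests, and no reported value rests on resampling. These were sign tests within loci and Fisher's exact tests between groups, for lengths on the loci above and not above the pooled median. All are two-sided. The 32 tests were adjusted together (Benjamini-Hochberg, threshold 0.05), and 16 passed. Another 3, chosen from values already seen, were adjusted as a family of their own. Intervals are exact, 95%, and cover counting across loci, which are not biological replicates. Depth is unknown. Alternatives were strand, scaffolds, overlaps, short introns, exon number and source. No adjustment covers the number of alternatives tried. As a check made first, the tests were run on lengths drawn at random from the first introns of these loci, with set differences between groups. Members and lists were chosen with earlier results of these data known. Loci were named by a rule: extremes of exon number, length, span, introns and internal exons, those nearest to each source's medians, and listed names (35 loci). RefSeq names came from the GRCz12tu table. Sequences were not analysed here. The values of 1 locus are not reported here. The work ran in scipy 1.17.1, pandas 2.3.3 and numpy 2.4.6 under Python 3.11.15, with matplotlib 3.10.9 for plots.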

Additional observations from a re-analysis of the deposited data

Results flagged for a closer look

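In all, 3 contrasts within a locus differed between the sources by Fisher's exact test, run after the values had been seen and adjusted over these 3. The first exon was longer than the median internal exon in 77 of 136 Zv9_ loci, or 56.6%, and in 143 of 179 linc- loci, or 79.9% (difference -23.3 percentage points, exact test, adjusted p = 1.8e-05). The last exon was longer than the internal exon in 81.6% of Zv9_ and 97.8% of linc- loci (difference -16.1 percentage points, exact test, adjusted p = 2.2e-06). Both differences held in loci of exactly 3 exons (-18.8 and -17.0 percentage points, exact test, adjusted p = 0.037 and 0.014) and of 4 or more (-16.6 and -8.50, exact test, adjusted p = 0.030 and 0.023). The first intron was longer than the last in 39.7% of Zv9_ and 52.5% of linc- loci (difference -12.8 percentage points, exact test, adjusted p = 0.030). It did not pass within 3-exon loci (-15.3 percentage points, exact test, adjusted p = 0.084) or loci of 4 or more exons (-6.29, adjusted p = 0.49). Since all 3 contrasts were picked from values already seen, their p-values are too small by an unknown amount. The planned contrasts of position between the sources did not pass. The longest exon was the last in 67.6% of Zv9_ and 75.4% of linc- loci (exact test, adjusted p = 0.21). The longest intron was the first in 33.1% and 34.6% (exact test, adjusted p = 0.90). The first intron exceeded the median internal intron in 39.5% and 57.6% (exact test, adjusted p = 0.087).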

How the results depend on the processing

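Of 159 alternative values, 111 kept their direction and their side of the threshold, 18 fell below it, 5 rose past it, 23 changed direction and 2 shares with no test moved; 4 combinations could not be run. Causes were not tested.

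For the share of loci with the first intron longer than the internal one, the alternatives gave 39.5% in Zv9_ models, 47.9% in 4-exon loci, 48.2% against the mean internal intron and 38.7% against the longest, but 57.6% in linc- models, 56.7% in loci of 5 or more exons and 55.6% on the minus strand. For the last intron the first 4 gave 41.9%, 45.1%, 47.0% and 35.3%, while linc- models gave 53.6% and loci of 5 or more exons 54.6%. The first intron exceeded the last in 39.7% of Zv9_ loci (exact sign test, adjusted p = 0.038), 52.5% of linc- loci and 51.2% of loci with 4 or more exons.

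Zv9_ minus linc- medians in loci of 5 or more exons were 4052.5 nt for the first, 5886.25 for the internal and 16243 for the last intron, and -44.5, 8.75 and -241.5 nt for the first, internal and last exon, none past the threshold. There the longest intron was first more often by 1.47 and the longest exon last by 3.24 percentage points. In 3-exon loci the first intron differed by 1319 nt, and first over last intron by -15.3 points (-6.29 with 4 or more exons). For the share with the first intron longer than the internal one, Zv9_ minus linc- was -18.1 points in the main test, which did not pass (exact test, adjusted p = 0.087). Without loci holding an intron under 70 nt the difference reached -20.9 points (exact test, adjusted p = 0.039). In loci of 5 or more exons it was -7.65 points (exact test, adjusted p = 0.90).

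For loci of 3 or 4 exons minus 5 or more, Zv9_ models alone gave -154 (last exon), -57.5 (first exon), -8.75 (internal exon), -2295 (first intron) and 1051.75 nt (internal intron), and linc- models -177, 5.5 and 908.5 nt (last exon, first exon, internal intron). Without overlapping loci the first intron, at 1086.5 nt, passed (exact test, adjusted p = 0.0495).

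The next differences are the loci described here minus the set they are compared with. Against 2-exon loci, Zv9_ models gave 898 nt for the first intron, -34.5 for the first and 75 for the last exon, and linc- models -110 for the last exon. Against loci with several transcripts, spliced length did not pass over all models (-201 nt, exact test, adjusted p = 0.085). It passed within Zv9_ (-478.5 nt) and linc- models (-637 nt), with the longest of several models taken, which favours length by construction. With the first transcript by identifier over all models it was -77 nt (exact test, adjusted p = 0.60). The first intron gave 500 nt (Zv9_) and 169 nt (first transcript by identifier), the internal intron 4519.25 (Zv9_) and -618 nt (linc-), and the last exon -252 (linc-) and -110 nt (first transcript). Against mouse, linc- models gave -48 nt for the internal intron and -408 nt for the last exon. Internal exons divisible by 3 made up 31.0% in Zv9_ and 47.4% in linc- models.

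No analysis paired by stage or library was possible, because each stage has 1 library and the exon coordinates belong to none. Only 12 Zv9_ loci have 5 or more exons, which limits that stratum. Source and annotation method cannot be told apart, and a model that lacks an end exon shifts every position in it, which coordinates alone do not show.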
